A study of Mus musculus with 82 samples.

Results

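Skin biopsies taken on d4 after 3 Gy of whole-body X-rays were compared with d4 biopsies of sham-treated mice. Arrays were chosen by the dosage and time point in their sample labels, which gave 5 arrays of 3 Gy mice (M011 to M015) and 4 of sham mice (M001, M002, M004 and M005), 9 of 82 arrays in the series, each from a mouse of its own. All mice were male C57BL/6 (labelled C57BL/6j), bought as young adults. They were exposed under ketamine and xylazine to photons of a linear accelerator, and sham mice were moved and handled in the same way without exposure. Each mouse had already been shaved and had given a dorsal biopsy at h2, so that the d4 biopsy of both groups came from skin biopsied before. Biopsies kept their blood, and in such bulk samples fewer cells of a type and less RNA per cell cannot be told apart. The arrays were whole-genome mouse arrays with biopsy RNA in the Cy5 channel, a universal mouse reference RNA in the Cy3 channel and no dye swap. All array values below are log2 ratios of biopsy over reference, and differences between groups are 3 Gy minus sham on that scale unless another pair is named.

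Scanner and group were unevenly matched. Sham mice M001, M004 and M005 and the 3 Gy mouse M011 were read on 1 scanner model (scanner 1), and sham mouse M002 and 3 Gy mice M012 to M015 on another (scanner 2). The model changed together with the software version and the array design version, and those cannot be told apart. Values within each scanner therefore stand on 1 mouse of 1 group, and a second fit with scanner as a block is given beside the first for the main genes and lists. The 9 arrays lay on 5 slides, of which 1 held both groups. Median Cy5 intensity was between 54 and 97 and median Cy3 intensity between 99 and 129.5, and 46.6% to 71.3% of the probes were well above background in Cy5. Markers of basal epidermis were above the reference on every array, with a list mean between 3.03 and 4.06.

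Ionizing radiation breaks DNA, and the damage stabilizes the transcription factor p53, which switches on genes that halt the cell cycle, repair DNA or start apoptosis. Damaged DNA that reaches the cytosol can also start interferon signaling, in which transcription factors bind an element in the promoters of interferon-stimulated genes. Skin holds dividing keratinocytes of the epidermis and hair follicle, sebaceous glands, fibroblasts, vessels and resident leukocytes, and a wet biopsy also carries circulating blood cells.

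The core of that element, searched as GAAA, any 2 bases and GAAA on both strands in windows of 300 bases around the gene start (RefSeq, GRCm38.p6), was in 1131 of 32851 windows (3.44%) and in 1079 of 27025 genes with a window (3.99%). Of the 13 interferon-stimulated genes that were tested and had a window, 7 held it (Isg15, Ifit1, Ifit3, Oas1a, Rsad2, Cxcl10 and Bst2). A match is a description of the letters and no evidence of binding. The 250 bases before the start of Isg15, Ifit1 and Bst2 are shown, with each match in capitals, as examples picked among the genes that hold the core and whose values in every sample are given below. Irf7 and Oasl2, also described below, had a window without it, and Rtp4 and Zbp1 had no window. The Isg15 stretch lies at chr4:156200819-156201068 on the minus strand and holds 3 overlapping matches, the Ifit1 stretch at chr19:34640639-34640888 on the plus strand holds 2, and the Bst2 stretch at chr8:71537473-71537722 on the minus strand holds 2.
Isg15: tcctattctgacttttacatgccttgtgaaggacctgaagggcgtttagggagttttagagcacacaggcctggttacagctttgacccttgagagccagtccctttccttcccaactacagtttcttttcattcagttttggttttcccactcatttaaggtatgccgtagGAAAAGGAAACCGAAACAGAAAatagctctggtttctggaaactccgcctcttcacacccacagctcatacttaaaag
Ifit1: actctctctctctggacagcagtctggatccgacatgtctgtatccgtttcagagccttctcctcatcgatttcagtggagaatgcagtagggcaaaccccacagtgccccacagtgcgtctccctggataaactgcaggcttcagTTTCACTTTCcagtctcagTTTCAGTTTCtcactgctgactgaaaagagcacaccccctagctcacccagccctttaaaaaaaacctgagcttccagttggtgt
Bst2: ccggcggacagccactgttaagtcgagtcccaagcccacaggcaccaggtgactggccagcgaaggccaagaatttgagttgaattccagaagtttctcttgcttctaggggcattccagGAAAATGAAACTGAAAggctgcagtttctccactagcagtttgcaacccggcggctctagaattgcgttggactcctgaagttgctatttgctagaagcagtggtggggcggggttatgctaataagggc

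In the fit of the scanner files used here, Krt7 was the single significantly differentially transcribed gene (SDTG) at d4 after 3 Gy. Of 30294 probes tested, 1 (0.0033%) had a Benjamini-Hochberg adjusted p under 0.05 in limma and at least a 2-fold change, being higher after 3 Gy. With scanner as a block it was again 1 probe (0.0033%), the same one. Past 2-fold with an unadjusted p under 0.05, 176 probes were higher and 129 lower, and with scanner as a block 20 and 37. Without M002, the only sham array of scanner 2, 508 probes were called (187 higher and 321 lower), and there were 4 calls without M011, 2 without M013 and 0 without any of the other 6 mice. A background correction fitted on all spots, including outlier spots with extreme local background, gave 582 higher and 1017 lower. It narrowed the log2 ratios of 4 of the 5 irradiated arrays, and it is given further only as an alternative setting at the end. With the authors' normalized values the same model called 108 probes (0.357%), 98 higher and 10 lower, as described at the end. Krt7 was not among them.

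Krt7, a type II keratin of simple and glandular epithelia (chr15:101412403-101427806), was at -1.64, -1.89, -1.78 and -1.76 in sham mice M001, M004, M005 and M002. After 3 Gy it was at 0.05 in M011, 0.03 in M012, -1.59 in M013, -0.28 in M014 and -0.42 in M015. The groups did not overlap, but M013 lay beside the sham mice. The difference was 1.33 (2.51-fold, SE 0.238, 95% interval 0.85 to 1.80, limma adjusted p = 0.0172) and 1.35 with scanner as a block (adjusted p = 0.0382). It was 1.83 within scanner 1 and 1.20 within scanner 2. A second probe of the gene gave 1.01 (adjusted p = 0.114).

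The call of Krt7 rested on few mice. Without M013 the difference was 1.62 (limma adjusted p = 3.24e-05) and both its probes were called, while the call was also made without M011 or M002. Leaving out any of the other 6 mice ended it, with an adjusted p of up to 0.202, and so did fitting these 9 arrays alone or slide as a random block. With each array centered on its median the difference was 0.34 and the median of all genes -0.58. With the authors' normalized values Krt7 differed by 0.65 (adjusted p = 0.0208), which was under 2-fold, and the groups overlapped.

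In the scanner files the mean level of Krt7 at d4 was ordered by dose, with all doses set against the same 4 sham arrays. Its mean was -1.77 ± 0.104 (SD, n = 4) in sham biopsies, -0.897 ± 0.527 (n = 4) in those of 1 Gy mice, -0.441 ± 0.675 (n = 5) at 3 Gy, -0.402 ± 0.373 (n = 4) at 6 Gy and 0.948 ± 0.207 (n = 4) at 20 Gy. The limma adjusted p against sham was 0.757 for the 1 Gy group, 0.00672 for 6 Gy and 6.82e-13 for 20 Gy. Between 3 and 6 Gy the difference was -0.04 (unadjusted p = 0.872) and between 3 and 1 Gy 0.46 (unadjusted p = 0.06), and the arrays of these 3 doses overlapped. The 1 Gy arrays lay above all sham arrays, and the 20 Gy arrays above all others. With the authors' values the order did not hold, with means of -1.11 in sham, -0.886 at 1 Gy, -0.459 at 3 Gy, -0.798 at 6 Gy and -0.143 at 20 Gy. Scanner was uneven over the doses, as all 4 arrays of 20 Gy and 3 of 4 sham arrays were read on scanner 1 and 3 of 4 at 1 Gy and at 6 Gy on scanner 2. With scanner as a block Krt7 differed from sham by 0.89 at 1 Gy, 1.35 at 3 Gy and 1.38 at 6 Gy. On scanner 1 alone, sham arrays lay at -1.89 to -1.64, the single arrays of 1, 3 and 6 Gy at -0.86, 0.05 and -0.13, and the 20 Gy arrays at 0.72 to 1.22.

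At h2 after 3 Gy Krt7 was 0.16 above sham (adjusted p = 0.786).

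**Figure D1:**
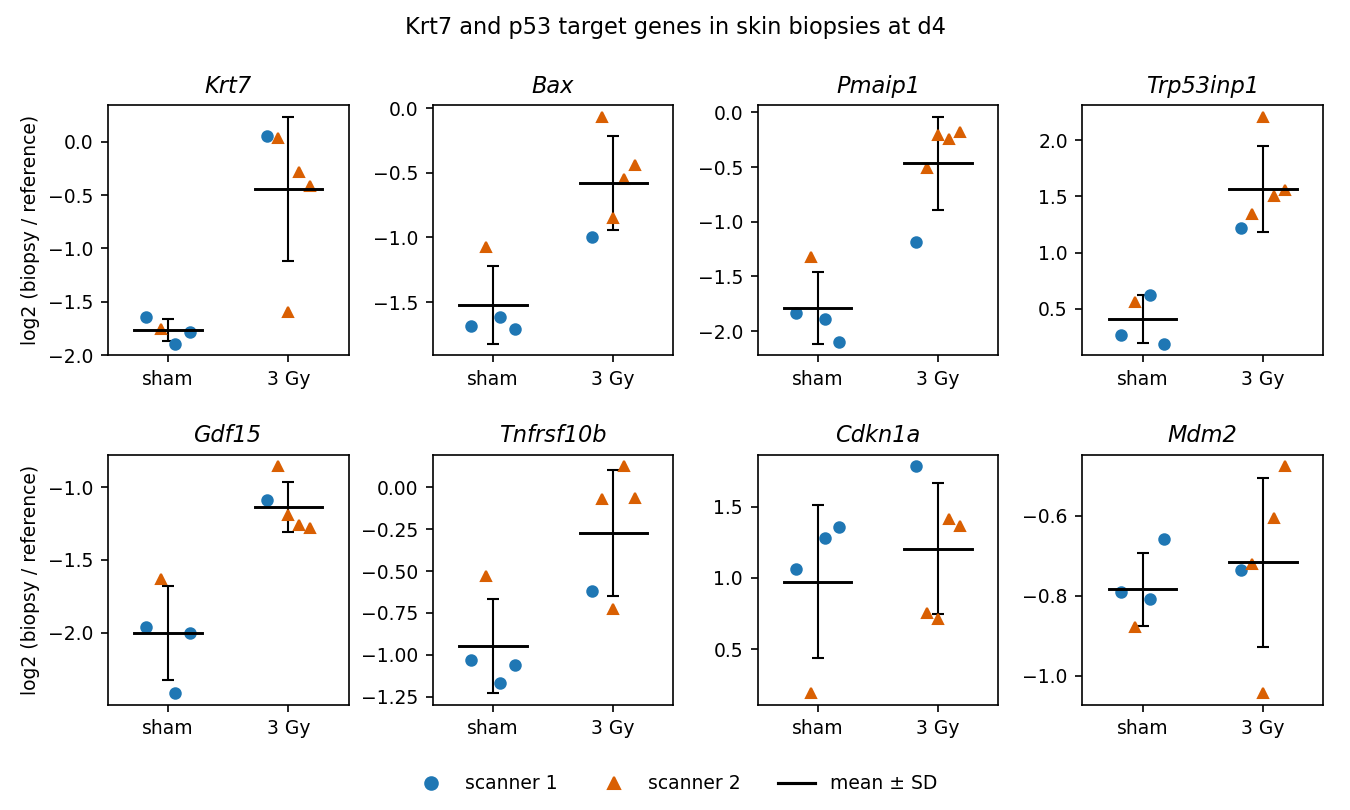
Log2 ratio of biopsy over reference (vertical axes, 1 scale per gene) of Krt7 and 7 p53 target genes in sham and 3 Gy biopsies at d4, with 1 point per array, circles for scanner 1, triangles for scanner 2, and bars for mean ± SD. Krt7, Bax, Pmaip1, Trp53inp1 and Gdf15 are higher in all 5 irradiated arrays than in any sham array, whereas Cdkn1a and Mdm2 overlap when scanners are pooled.

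None of the p53 target genes passed the test, but 4 of them were separated between the groups. All 29 listed members were tested, and 22 had a positive difference, beside 8252 of 15740 genes over the whole array. At an unadjusted p under 0.05, 5 were higher and 0 lower, where 8.09% of all genes were higher and 7.1% lower, and with scanner as a block 8 were higher and 0 lower (3.65% and 2.45% of all genes). Groups did not overlap for 4 members, all higher, where this held for 2.29% of all genes in that direction and 1.95% in the other. Members were counted by their brightest probe, and 7 were negative. Among these, Btg2 had other probes at -0.96 (limma unadjusted p = 0.0146) and -0.71, or -0.61 and -0.41 with scanner as a block. The median difference of the list was 0.25, against 0.02 over all genes. It was 0.25 with scanner as a block, 0.16 within scanner 1, 0.35 within scanner 2 and 0.15 with the authors' values. Centering each array on its median gave -0.52 for the list and -0.58 for all genes, and Bax (-0.011) and Gdf15 (-0.079) were then near 0. The mean over the list ran from -0.11 to 0.00 in sham arrays and from 0.12 to 0.33 in 3 Gy arrays. These and the further genes below that no call selects were chosen after their values were seen.

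Among the effectors of apoptosis, Pmaip1 (NOXA, a BH3-only protein) was at -1.84, -1.89, -2.10 and -1.32 in sham mice M001, M004, M005 and M002, and at -1.19, -0.51, -0.21, -0.24 and -0.18 in 3 Gy mice M011 to M015. All 5 irradiated mice were above all sham mice, and the 2 groups came closest between M002 and M011. The difference was 1.32 (SE 0.267, 95% interval 0.79 to 1.85, limma adjusted p = 0.0738), and 0.99 with scanner as a block (adjusted p = 0.394). Unlike for Krt7, mouse M013 was among the high values.

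Bax, the pore-forming protein of the mitochondrial pathway, was at -1.69, -1.62, -1.71 and -1.07 in the sham mice and at -0.99, -0.07, -0.85, -0.55 and -0.44 in the 3 Gy mice, in the same order. The groups were only just apart, with sham mouse M002 above the other sham mice and close to M011. The difference was 0.94 (SE 0.192, limma adjusted p = 0.0738), and 0.72 with scanner as a block (adjusted p = 0.394). Without M011, Bax and Pmaip1 passed the test (adjusted p = 0.0221 for both), and without M002 both did (0.0106) together with Trp53inp1 (0.0261). The fit without M002 has sham arrays of scanner 1 only, and 508 of 30294 probes passed in it. The death receptor gene Tnfrsf10b differed by 0.68 (adjusted p = 0.158) with overlapping groups, and by 0.42 with scanner as a block, and its other probes gave 0.63 and -0.0011.

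Trp53inp1, a p53-induced nuclear protein, lay between 0.19 and 0.62 in sham mice and between 1.21 and 2.21 in 3 Gy mice, with its highest value in M013. It differed by 1.16 (SE 0.288, limma adjusted p = 0.14), and 0.94 with scanner as a block, and its other probe gave -0.32, but 0.34 with the block and 0.17 with the authors' values. Gdf15, a secreted stress cytokine, lay between -2.42 and -1.63 in sham mice and between -1.28 and -0.86 in 3 Gy mice, a difference of 0.87 (adjusted p = 0.14), and 0.78 with scanner as a block. At d4 after 6 Gy it was 1.08 above sham (adjusted p = 0.0151) and after 20 Gy 2.25.

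The cell cycle inhibitor Cdkn1a (p21) and the p53 ligase gene Mdm2 overlapped between the groups when both scanners were pooled. Cdkn1a lay between 0.19 and 1.36 in sham mice and between 0.71 and 1.78 in 3 Gy mice, a difference of 0.23 (95% interval -0.62 to 1.08, limma adjusted p = 0.826). Within each scanner, however, every irradiated mouse was above every sham mouse, by 0.55 on scanner 1 and 0.87 on scanner 2 in the mean, and the difference was 0.54 with scanner as a block (adjusted p = 0.874) and 0.34 with the authors' values (adjusted p = 0.27). Mdm2 differed by 0.07 (95% interval -0.28 to 0.42), and by 0.25 with the block. With scanner as a block the difference of the RNA-binding protein gene Zmat3 went from 0.33 to 0.57 (adjusted p = 0.782) and that of the translesion polymerase gene Polk from 0.25 to 0.53 (adjusted p = 0.772).

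Interferon-stimulated genes had mostly positive differences, and none passed the test at 3 Gy with all arrays. Without sham mouse M002, Isg15 (limma adjusted p = 0.0498), Rtp4 (0.0217) and Zbp1 (0.0315) did. That fit has sham arrays of scanner 1 only, and 508 of 30294 probes passed in it. Of 20 interferon-stimulated genes listed, 18 were tested, and 17 of them were positive (8252 of 15740 over all genes). At an unadjusted p under 0.05, 9 were higher and 0 lower (8.09% of all genes were higher). With scanner as a block 6 were higher and 0 lower, where 3.65% of all genes were higher and 2.45% lower. The groups did not overlap for 2 of the 18, Rtp4 and Bst2 (2.29% of all genes). The median difference was 0.76, 0.63 with scanner as a block, and 0.51 with the authors' values. Centering on array medians brought it to -0.08, against -0.58 over all genes.

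Isg15, a ubiquitin-like modifier, was at -2.0, -2.49, -2.38 and -1.74 in sham mice M001, M004, M005 and M002 and at -0.82, 0.09, -1.81, -0.47 and -1.31 in 3 Gy mice M011 to M015. M013 lay inside the sham range, as it nearly did for Krt7, and the other 4 irradiated mice lay above it. The difference was 1.29 (SE 0.413, 95% interval 0.46 to 2.11, limma adjusted p = 0.178), and 1.07 with scanner as a block.

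Ifit1, which binds foreign RNA, was at -1.55, -1.75, -1.73 and -1.01 in sham mice and -0.67, 0.11, -1.33, -0.30 and -0.44 in 3 Gy mice, where M013 alone overlapped the sham mice. It differed by 0.98 (limma adjusted p = 0.247), and by 0.74 with scanner as a block. Bst2 (tetherin), a membrane protein that holds back budding virus, was at -1.73, -1.69, -2.06 and -1.80 in sham and -0.76, -0.64, -1.54, -0.45 and -0.97 after 3 Gy, with no overlap. It differed by 0.95 (adjusted p = 0.209), and by 1.13 with scanner as a block.

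Rtp4, another interferon-stimulated gene, lay between -2.33 and -0.50 in sham mice and between -0.49 and 1.11 in 3 Gy mice, so that M013 and sham mouse M002 nearly touched. It had the largest difference of the list at 1.67 (limma adjusted p = 0.157), or 1.32 with scanner as a block. The nucleic acid sensor gene Zbp1 differed by 1.41, but by 0.76 with scanner as a block. Irf7, the regulator of interferon genes, differed by 1.18, and by 0.80 with the block, with M011 at -1.68 inside the sham range. The chemokine gene Cxcl10 differed by -0.09, with overlapping groups.

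**Figure D2:**
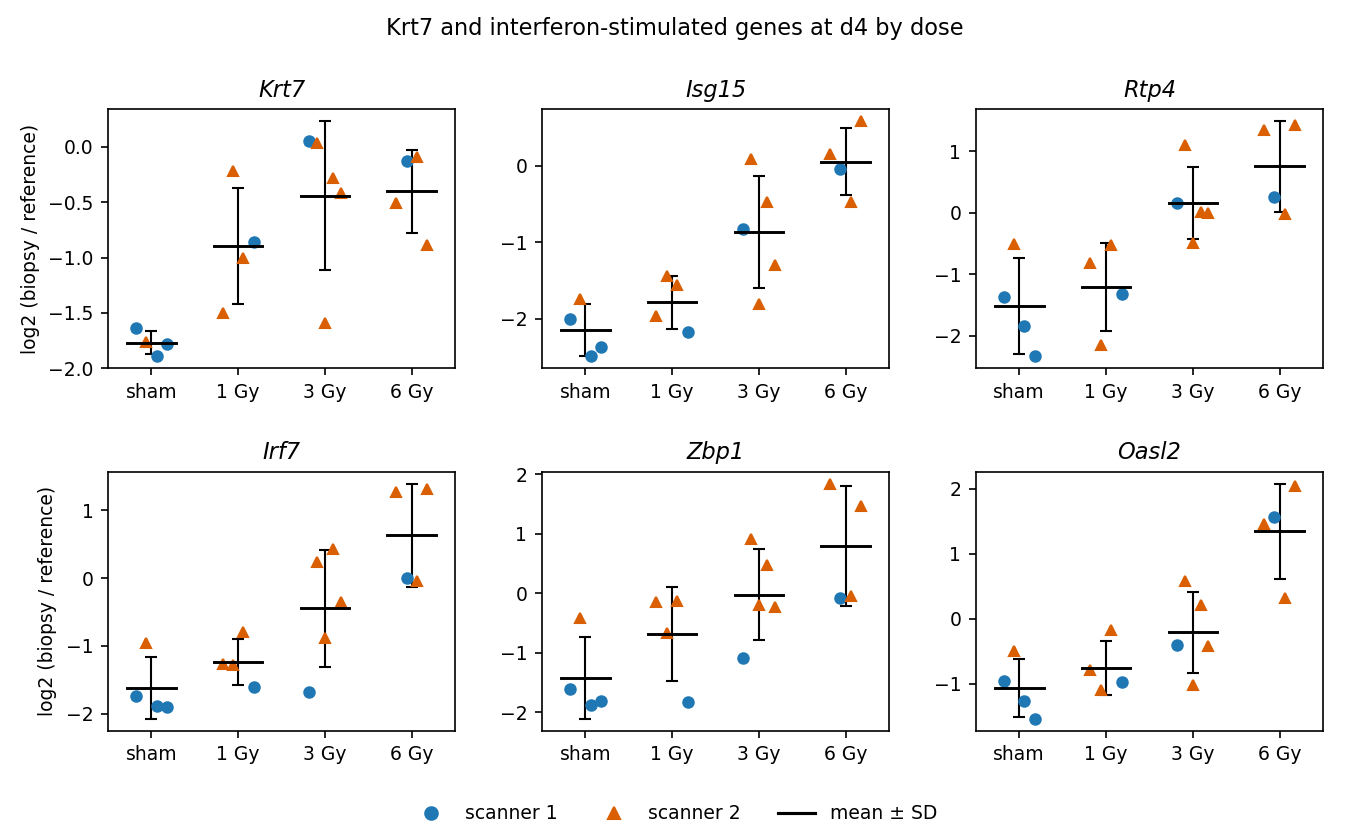
Log2 ratio of biopsy over reference of Krt7 and 5 interferon-stimulated genes at d4 in sham (n = 4), 1 Gy (n = 4), 3 Gy (n = 5) and 6 Gy (n = 4) biopsies, 1 point per array, circles for scanner 1, triangles for scanner 2, and bars for mean ± SD. For the interferon genes the 3 Gy mean lies between those of 1 Gy and 6 Gy in each panel, with overlapping points.

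By dose, the list mean ran from -1.20 to -0.80 in sham arrays, -0.94 to -0.53 at 1 Gy, -0.77 to 0.17 at 3 Gy and -0.22 to 0.70 at 6 Gy. The 3 medians of the difference from the shared sham arrays, by rising dose, were 0.16, 0.76 and 1.47, and 0.14, 0.63 and 1.46 with scanner as a block. At 6 Gy 23 probes (0.0759%) passed the test against sham, among them those of Isg15 (2.21), Irf7 (2.26), Zbp1 (2.22), Rtp4 (2.26) and Oasl2 (2.42). Tested directly, 3 Gy differed from 6 Gy by -1.56 for Oasl2 (unadjusted p = 2.57e-04, limma adjusted p = 0.806), -0.92 for Isg15 and -1.08 for Irf7. Of all 30294 probes 0 (0%) passed between 3 and 6 Gy (45 with the authors' values), with 13 higher and 21 lower at an unadjusted p under 0.05 and 2-fold.

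At h2 after 3 Gy the median of the interferon list was 0.90 above sham. The h2 differences here were fitted without scanner as a block, and scanner was split over the groups as at d4. The d4 difference minus the h2 difference was 0.20 for Isg15, 0.42 for Rtp4 and -0.28 for Oasl2. Mice kept their scanner between h2 and d4, so this contrast is not tilted by scanner for probes without dropped spots. It called 0 of 30294 probes (0%), with 53 higher and 122 lower at an unadjusted p under 0.05 and 2-fold. For Krt7 the d4 difference exceeded that at h2 by 1.17 (SE 0.337, 95% interval 0.50 to 1.85, unadjusted p = 9.24e-04, adjusted p = 1), and without M013 both Krt7 probes passed (1.67 and 1.55).

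The largest positive differences among genes called with the authors' normalized values were those of Stfa1, S100a9, Stfa3, Rnase2b and Hrnr, and none passed in the scanner files with all arrays. Without sham mouse M002, Stfa3 (limma adjusted p = 0.0467) and Rnase2b (0.042) did, but no sham array of scanner 2 was then left. Stfa1 and Stfa3 encode stefin A protease inhibitors, close copies of each other that a probe may not tell apart. Stfa1 was at 4.32, 3.90, 3.87 and 4.85 in sham mice M001, M004, M005 and M002 and at 5.25, 7.25, 7.28, 10.36 and 6.98 in 3 Gy mice M011 to M015. The groups did not overlap, M014 was by far the highest, and the 3 Gy mouse of scanner 1 was the lowest. The difference was 3.19 (SE 1.03, limma adjusted p = 0.183), and 1.90 with scanner as a block. At h2 it was 3.32, but there the spot of M002 was dropped as an outlier, and the 3 sham arrays left were all of scanner 1.

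S100a9, a calprotectin subunit of neutrophils and stressed keratinocytes, was at 2.00, 2.74, 2.10 and 2.28 in sham and at 4.12, 4.38, 4.99, 7.33 and 4.79 after 3 Gy. All irradiated mice were higher, and M014 again stood apart. The difference was 2.84 (SE 0.981, limma adjusted p = 0.192), and 1.91 with scanner as a block. Beside it, the neutrophil marker list had 9 tested members, of which S100a8 and S100a9 were higher without overlap (2.29% of all genes) and the other 7 differed by between -0.15 and 0.33. The list's array means were 0.14 to 0.30 in sham and 0.50 to 1.47 after 3 Gy, highest in M014. Their part in the result was not tested.

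Stfa3 differed by 2.97 (limma adjusted p = 0.163), and by 2.16 with scanner as a block. The secreted ribonuclease gene Rnase2b differed by 2.54 (adjusted p = 0.17), and by 1.75 with the block. Hrnr, a cornified envelope protein, differed by 1.92 (adjusted p = 0.192), and by 1.18 with the block. For Hrnr M011, at 5.31, lay within the sham range of 4.51 to 5.38, while M012 to M015 lay between 6.98 and 8.31. Markers of the differentiated epidermis had a positive difference in 21 of 24 tested (8252 of 15740 over all genes), and in 15 with scanner as a block (8079). At an unadjusted p under 0.05, 3 were higher (8.09% of all genes), and the median was 0.42. With scanner as a block 1 was higher (3.65% of all genes) and the median was 0.06, it was -0.14 within scanner 1 and 0.84 within scanner 2, and -0.34 with arrays centered on their medians (-0.58 over all genes). With the authors' values the median was 0.62, with 23 of the 24 positive and 2 passing the test, both higher (0.546% of all genes). The late envelope gene Lce3c differed by 1.38 and 1.01 with the block, the keratin gene Krt10 by -0.14 and -0.51.

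Sebaceous gland markers were likewise uneven, with 2 higher and 1 lower of 8 at an unadjusted p under 0.05 (8.09% of all genes higher and 7.1% lower) and a median of 0.36, or -0.47 with arrays centered on their medians. With scanner as a block 1 was higher and 0 lower (3.65% and 2.45% of all genes), with a median of 0.23. Awat2, a wax synthase, lay between 1.28 and 2.79 in sham mice and between 2.96 and 4.79 in 3 Gy mice, a difference of 1.47 (limma adjusted p = 0.209), and 0.89 with the block. The fatty acid synthase gene Fasn differed by -0.77, and by -0.42 with the block, with the spot of M002 dropped as an outlier. With the authors' values 5 of the 8 passed the test, all of them higher (0.546% of all genes), and the median was 1.04. Defb1, an epithelial defensin, was without overlap at 1.63 to 2.30 in sham and 3.29 to 4.15 after 3 Gy. The difference was 1.74 (limma adjusted p = 0.158), and 1.13 with scanner as a block. Without M002, which leaves sham arrays of scanner 1 only, its adjusted p was 0.0455.

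Hemoglobin transcripts were low in 4 of the 5 irradiated mice. Hbb-bt, a beta globin chain of red blood cells, was at 6.13, 6.17, 5.67 and 7.28 in sham mice M001, M004, M005 and M002 and at 3.42, 2.36, 6.79, 3.08 and 2.63 in 3 Gy mice M011 to M015. M013 lay within the sham range and the other 4 were far below it. The difference was -2.66 (SE 0.854, 95% interval -4.37 to -0.95, limma adjusted p = 0.181), -3.40 with scanner as a block (adjusted p = 0.394), -2.57 within scanner 1 and -3.57 within scanner 2. With the authors' values it was -0.92 (adjusted p = 0.218). Its 3 other probes gave -2.36, -1.64 and -2.37, and with the authors' values -0.98, -0.44 and -1.09, and beta globin copies are alike enough to share a probe.

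At d4 Hbb-bt differed from sham by 0.42 in 1 Gy mice, -2.66 at 3 Gy, -3.49 at 6 Gy and -2.73 at 20 Gy. The differences with scanner as a block were -0.26 at 1 Gy, -3.40 at 3 Gy and -4.16 at 6 Gy. The direct difference between 3 and 1 Gy was -3.08 (unadjusted p = 6.76e-04), and 0 of 30294 probes (0%) passed between these doses (68 with the authors' values, and 14 without the 1 Gy mouse M008), with 14 higher and 22 lower at an unadjusted p under 0.05 and 2-fold. Without M013 another Hbb-bt probe passed, at -3.53 (limma adjusted p = 0.0299). At h2 after 3 Gy the difference from sham was -0.55. Of the 12 erythroid markers 6 were tested, and 2 (Hbb-bt and the alpha globin gene Hba-a1, at -1.75 with the outlier spots of M002 and M013 dropped) were lower at an unadjusted p under 0.05, where 7.1% of all genes were lower, and 3 with scanner as a block (2.45% of all genes). The list's median was -0.42, -0.84 with the block and -0.42 with the authors' values. The erythroid list mean was 1.80 to 2.55 in sham, 2.15 in M013 and 1.01 to 1.25 in the other irradiated mice.

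**Figure D3:**
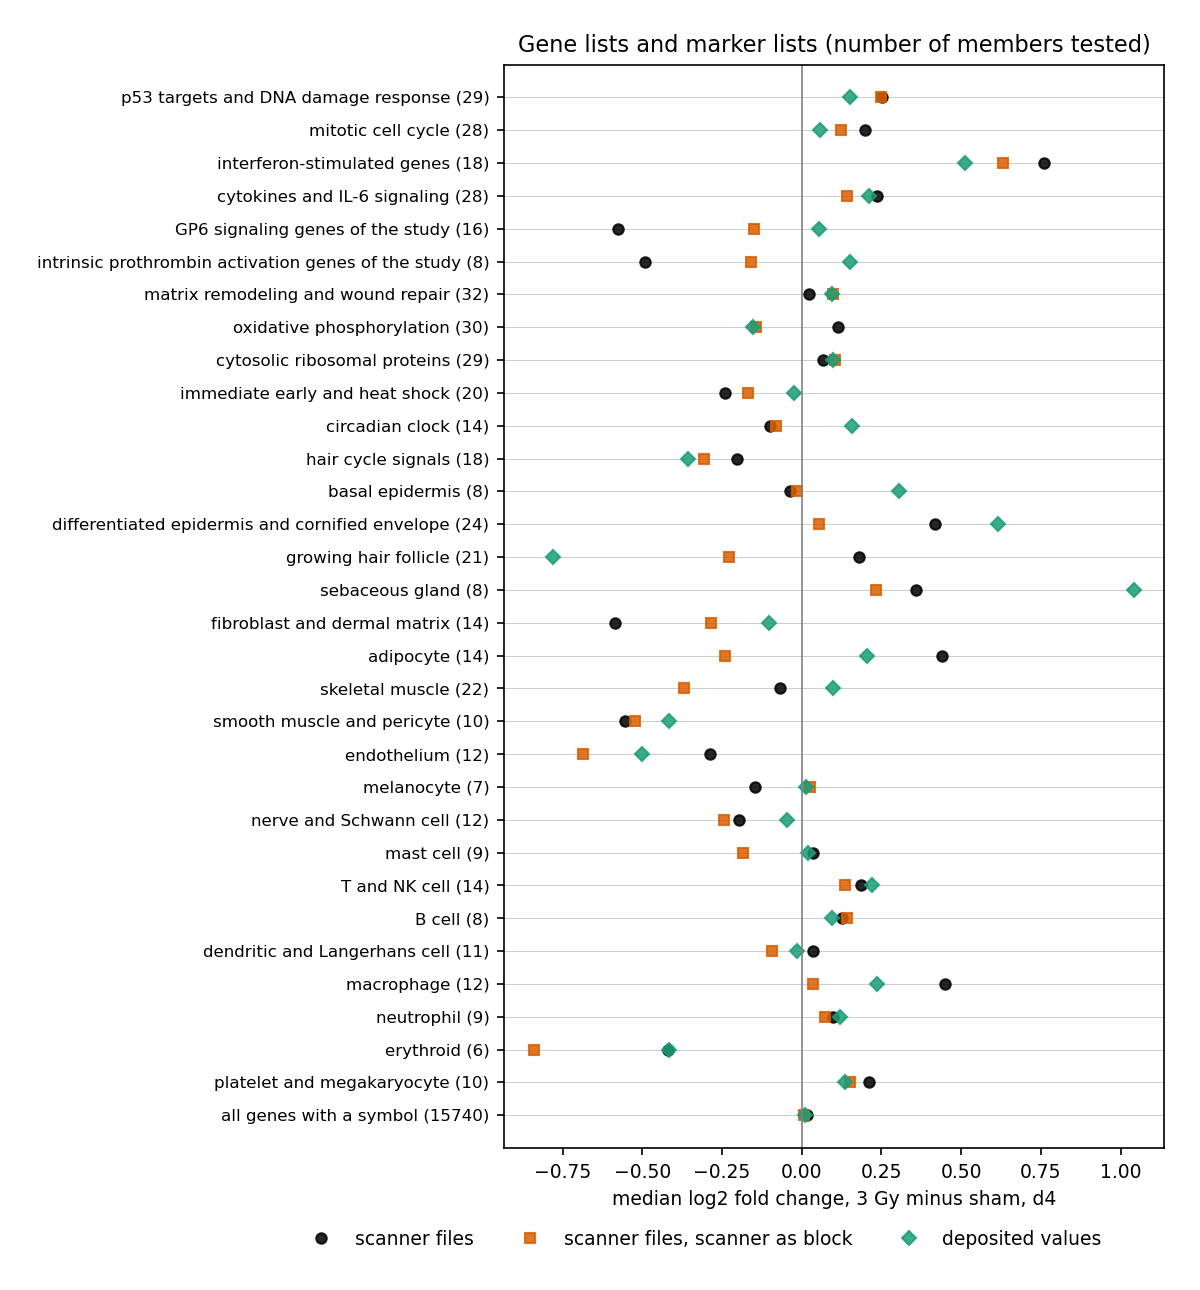
Median log2 difference (3 Gy minus sham at d4, horizontal axis) of each gene list and marker list, with the number of members tested in parentheses, from the scanner files (circles), the same with scanner as a block (squares) and the authors' normalized values (diamonds). Interferon-stimulated genes lie at 0.51 to 0.76 and smooth muscle at -0.55 to -0.42 in all 3, while cornified envelope, growing hair follicle and adipocyte lists shift between them.

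Vessel markers had mostly negative differences, and with scanner as a block so did markers of skeletal muscle and fat. All 10 smooth muscle and pericyte markers were below 0, 9 of them within both scanners (4055 of 15740 over all genes), with a median of -0.55 and -0.52 with scanner as a block. At an unadjusted p under 0.05, 1 was lower (7.1% of all genes), and with scanner as a block 2 (2.45%). Myh11, smooth muscle myosin, was at 3.85, 3.82, 3.57 and 3.87 in sham mice M001, M004, M005 and M002 and at 2.10, 2.37, 3.23, 2.55 and 3.44 in 3 Gy mice M011 to M015. The sham mice lay close together above all irradiated mice. The difference was -1.04 (SE 0.389, 95% interval -1.82 to -0.26, limma adjusted p = 0.21).

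Of 12 endothelial markers 10 were negative within both scanners, with a median of -0.29, -0.68 with scanner as a block and -0.50 with the authors' values. At an unadjusted p under 0.05, 1 was lower in the first fit (7.1% of all genes) and 6 with scanner as a block (2.45% of all genes). With the authors' values 1 passed the test, Tek, being lower (0.0445% of all genes). Vwf, von Willebrand factor, was at 3.44, 3.5, 3.32 and 4.70 in the sham mice and at 2.96, 1.92, 3.49, 3.26 and 3.22 in the 3 Gy mice, a difference of -0.77 (limma adjusted p = 0.303), which was -0.92 with scanner as a block, -0.45 without M002 and -0.51 without M012. Sham mouse M002 was high, and 3 Gy mouse M013 lay within the sham range. Tek, the angiopoietin receptor, lay between 0.84 and 3.38 in sham and 0.27 and 2.30 after 3 Gy, a difference of -0.41, but 0.15 without M002. It was -0.85 with scanner as a block, -0.30 within scanner 1, -1.95 within scanner 2 and -1.09 with the authors' values (adjusted p = 0.0014). In M002, the only sham mouse of scanner 2, the list means of endothelium (3.56), smooth muscle (2.53), adipocytes (5.58) and oxidative phosphorylation (1.86) all stood above those of the other sham mice, as did skeletal muscle (5.98, against 4.64 to 4.94). The other sham mice lay at 2.24 to 2.43 for endothelium, inside the 3 Gy range of 1.62 to 2.95. For smooth muscle they lay at 1.39 to 1.53, inside the 3 Gy range of 0.49 to 1.86. Of 22 skeletal muscle markers 14 were negative within both scanners, with a median of -0.07, -0.37 with the block and 0.10 with the authors' values. Of 14 adipocyte markers 4 were negative within both scanners, a share near that of all genes (4055 of 15740), with a median of 0.44, -0.24 with the block and 0.20 with the authors' values. Their part in these values was not tested.

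Further genes were separated between the groups without passing the test on all arrays. Zc3h6, a zinc finger gene, lay between 0.01 and 0.43 in sham mice and between -0.74 and -0.35 in 3 Gy mice, a difference of -0.77 (unadjusted p = 6.88e-05, limma adjusted p = 0.14), and -0.80 with scanner as a block, though its 2 other probes gave -0.17 and -0.24. Dst, a hemidesmosome linker of basal keratinocytes, was lower in all 5 mice than in any sham mouse. The difference was -1.21 (limma adjusted p = 0.155), and -0.66 with scanner as a block, with other probes at -0.08 and -0.43. Without M002, which leaves sham arrays of scanner 1 only, its adjusted p was 0.026. The basal epidermis list that holds Dst had a median of -0.04, 4 of 8 positive with the block, and 7 of 8 positive with the authors' values, Col17a1 passing the test there (1.06, adjusted p = 0.0159). Trem2, a receptor of macrophages, was higher in all 5, by 1.59 (adjusted p = 0.198), and by 1.49 with the block. It was the highest of the 12 macrophage markers, whose median was 0.45, 0.04 with the block, 1.08 within scanner 1 and -0.31 within scanner 2. The formin gene Fhod3 lay between 0.84 and 1.76 in sham and between -0.06 and 0.75 after 3 Gy, a difference of -0.83.

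The pathways that the study names held few such genes, and the study chose their members on these samples, so that their counts are no independent evidence. In GP6 signaling, the collagen receptor pathway of platelets, the list here leaves out Col6a3, which no tested probe was named for, and takes Calm4 for calmodulin-like 5. Of its members 0 of 16 were higher and 3 lower at an unadjusted p under 0.05 (8.09% and 7.1% of all genes), and 1 was lower with scanner as a block (2.45%). The median was -0.58, -0.15 with the block and 0.05 with the authors' values. Its laminin gene Lamb1 differed by -0.61 (limma adjusted p = 0.258), and -0.84 with the authors' values (adjusted p = 0.00566, under 2-fold). Col6a2 differed by -0.90, and by -0.63 with the block, at 1.14 to 1.56 in sham and 0.03 to 1.03 after 3 Gy without overlap. Fibrillar collagens depended on scanner, Col1a1 going from -1.0 to -0.26 and Col3a1 from -0.84 to -0.09 with the block. Other probes gave -0.87 and 1.24 for Col1a1 and 0.64 for Col3a1, or -0.38, 0.24 and 0.25 with the block.

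In intrinsic prothrombin activation, 1 of 8 was higher and 0 lower at an unadjusted p under 0.05 (8.09% and 7.1% of all genes), and with scanner as a block 0 were. The higher one was the kallikrein gene Klk8 (0.97, and 0.43 with the block), which passed the test with the authors' values (1.23, limma adjusted p = 0.00503). The kallikrein gene Klk7 differed by 0.58 on its brightest probe and by 1.30 and 2.15 on its others (limma adjusted p = 0.211 and 0.163), with overlapping groups on those. These 2 were 0.61 and 1.05 with the block and 1.06 and 0.79 with the authors' values, and the brightest was -0.29 and 0.47.

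Among 28 cytokine and IL-6 signaling genes, 5 were higher and 4 lower at an unadjusted p under 0.05 (8.09% and 7.1% of all genes), and 3 and 0 with scanner as a block (3.65% and 2.45%). Il18, a cytokine that keratinocytes store, was at 2.32, 2.31, 2.38 and 1.90 in sham mice and at 2.76, 3.57, 3.36, 3.94 and 3.12 after 3 Gy without overlap, a difference of 1.12 (limma adjusted p = 0.211), 0.78 with the block, and 1.19 with the authors' values (adjusted p = 0.00185). The lower ones included the signal transducers Stat3 (-0.71, and -0.38 with the block) and Il6st (-0.65, and -0.54). Of 28 mitotic genes 22 were positive, and 24 with the block (8252 and 8079 of 15740 over all genes). Within both scanners 12 were positive and 0 negative (3902 and 4055 over all genes). Their median changed sign between settings, at 0.20, 0.12 with the block, -0.12 within scanner 1 and 0.41 within scanner 2. It was 0.06 with the authors' values and -0.0093 with the software's log ratio. At an unadjusted p under 0.05, 3 of the 28 were higher (8.09% of all genes), and 2 with the block (3.65%). The T cell receptor complex gene Cd3g differed by 0.78 (-0.093 with arrays centered on their medians). Its direct difference from 6 Gy was 0.86 (limma unadjusted p = 8.61e-04), in a contrast where 0 of 30294 probes passed. Cd3g was the highest of 14 tested T and NK cell markers, 11 positive and 3 negative, whose median was 0.19 and 0.14 with the block. At an unadjusted p under 0.05, 2 of these markers were higher (8.09% of all genes), and 1 with the block (3.65%).

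**Figure D4:**
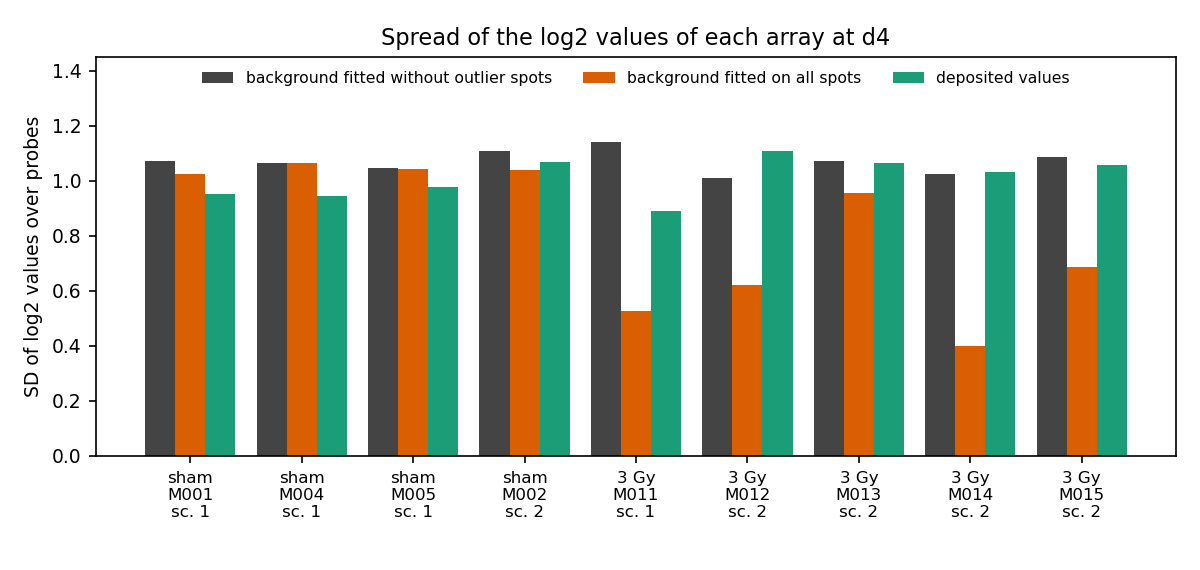
Standard deviation over probes of the log2 values of each of the 9 arrays (labels give group, mouse and scanner, sc.), with the background fitted without outlier spots, fitted on all spots, and in the authors' normalized table. Bars start at 0. Fitting on all spots narrows M011, M012, M014 and M015 to between 0.401 and 0.688, while the other fit leaves all arrays between 1.01 and 1.14.

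The authors' normalized log2 values correlated with the scanner files at 0.912 to 0.977 per array over probes, and each column had a median near 0, so that they are centered log ratios in the same direction. They had a smaller spread, with a median residual SD of 0.164 against 0.297. A scanner difference at adjusted p under 0.05 was found for 15839 probes (52.3%) in the scanner files and for 0 in the authors' values, and how those were normalized is not given in the sources used here. Of the 108 probes called in the authors' values, 100 had the same sign in the scanner files, 103 with scanner as a block, and 49 had an unadjusted p under 0.05 there. Called and past 2-fold with an unadjusted p under 0.05 in both were 36 probes, 33.3% of the 108 and 11.8% of the 305. At adjusted p under 0.05 with any fold change, 4.26% of genes were higher and 3.21% lower. The p53 list then had 6 of 29 higher and 0 lower, and the interferon list 0 of 18 either way. Sebaceous gland markers had 5 of 8 higher and T and NK cell markers 5 of 14, with 0 lower in both.

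Of the lower calls in the authors' values, Chac1, Efhd1, Tek, Prkcq and Fhod3 were largest among genes with a symbol, and 2 probes without a symbol lay at -1.51 and -1.26. Chac1, a glutathione-degrading enzyme induced by stress, was at -1.39 there (limma adjusted p = 0.0195) but at 0.32 in the scanner files, where it lay between -1.55 and -1.29 in 3 sham mice and between -1.43 and -0.93 after 3 Gy. Its M002 spot was dropped there as an outlier. Efhd1, a mitochondrial calcium-binding protein, was at -1.10 against 0.08, and -0.40 with scanner as a block. Prkcq, a protein kinase C, was at -1.06 against -0.71, which was -1.24 with scanner as a block and -0.25 without M002. Fhod3 was at -1.05 against -0.83.

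**Figure D5:**
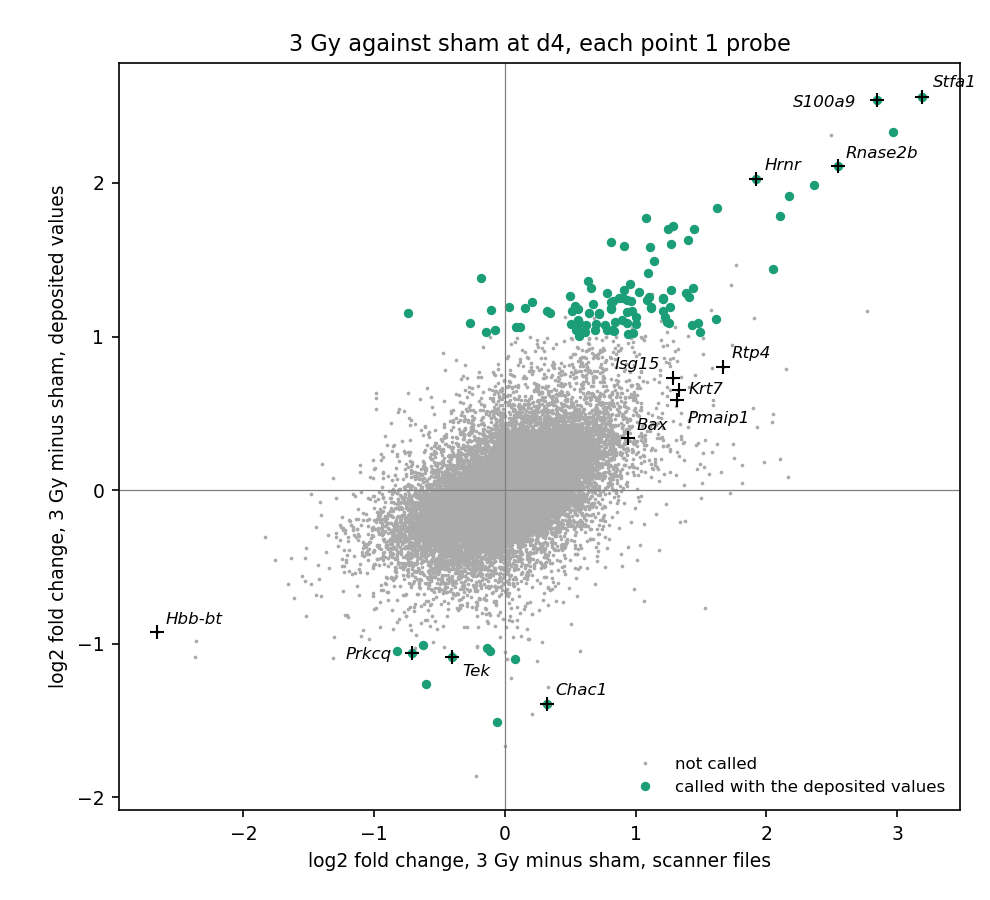
Log2 difference of each probe (3 Gy minus sham at d4) in the scanner files (horizontal axis) and in the authors' normalized values (vertical axis), with probes called in the latter as filled circles and named genes as crosses. Stfa1 and S100a9 lie at the upper right in both, while Krt7 and Hbb-bt are larger in the scanner files and Chac1 has opposite signs.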

How the data were processed

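The authors extracted the scanned images with Agilent Feature Extraction (version 11.0.1.1 in the submitters' processing notes). Per the file headers, each spot has a median intensity for either channel and for its surrounding background, not normalized, with the software's flags and its own log10 ratio of Cy5 over Cy3. For these arrays the authors further deposited normalized log2 values, made with custom R scripts whose steps are not given in the sources used here, and they served as an alternative.

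From the intensities, limma 3.58.1 in R 4.3.3 (with statmod 1.5.0, and data.table in version 1.17.8) corrected the background by normexp with an offset of 50 and normalized log2 ratios within arrays by loess. Median signals took the place of mean signals. Normexp fitted on all spots was distorted by spots with extreme local background, all flagged as outliers by the software, on M011, M012, M014 and M015: the SD of their log2 ratios was 0.528, 0.623, 0.401 and 0.688, and their correlation with the authors' values 0.764, 0.882, 0.666 and 0.857. Fitted without control and outlier spots, as here, the SD was 1.14, 1.01, 1.03 and 1.09 and the correlation 0.919, 0.966, 0.968 and 0.974. Spots of a probe were averaged (41174 probes), and a probe was tested if at least 1 group had it well above background (Cy5 channel) on 50% or more of its arrays, which left 30294. The number of arrays limits the precision. All 82 arrays entered lmFit and eBayes with a mean for each of 23 groups (59 residual degrees of freedom), and p-values were adjusted by Benjamini-Hochberg over all tested probes. The script was tested on simulated data.

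Genes were named from RefSeq (GRCm38.p6) through the probe accession, 22941 tested probes having a symbol (15740 genes), each gene by its brightest probe. Named were genes called in the first fit and past 2-fold in the same direction with scanner as a block and within both scanners, every gene called with scanner as a block, called members of the lists and of the other contrasts, and the 5 largest rises and 5 largest falls among genes called with the authors' values; other genes were chosen after their values were seen. The members and lists were chosen with earlier results of these data known. The same mice were biopsied at h2 and d4, and the correlation of their deviations from the group means over probes ranged from -0.307 to 0.502 over 9 mice; mouse was also fitted as a block. Alternatives were other scalings, filters, blocks, the authors' values and leaving out each array.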

Additional observations from a re-analysis of the deposited data

Results flagged for a closer look

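In 145 groups of 4 or 5 values, the highest or lowest array was tested for standing apart from its group, and 16 did; chance alone gives about 1 in 20. After 3 Gy these were Krt7 at -1.59, Hbb-bt at 6.79 and the erythroid list mean at 2.15 in M013, S100a9 at 7.33 and the neutrophil list mean at 1.47 in M014, and the platelet list mean at 0.54 in M011. Sham mouse M002, the sham array of scanner 2, stood apart for Efhd1 at 2.80, Bax at -1.07, Irf7 at -0.95, Il18 at 1.90 and Vwf at 4.70, and for the list means of oxidative phosphorylation at 1.86, adipocytes at 5.58, smooth muscle and pericytes at 2.53 and endothelium at 3.56. Sham mouse M005 stood apart for Awat2 at 1.28. The values without each of these mice were computed, and those of M002 cannot be told apart from its scanner within the sham group.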

How the results depend on the processing

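The number of probes called between 3 Gy and sham was 1, which Aquantile scaling could not move, as it leaves the log ratios as they are. It was again 1 without a filter on dim probes, with the strict filter and with mouse as a replicate block. It was 108 with the authors' values and 93 with scanner as a block in them, 3 without background subtraction (2 of Krt7 and 1 of Pmaip1), 5 within scanner 2, all lower, and 1478 within scanner 1, where M011 is the single irradiated mouse and is assumed to vary like the other groups. It was 1599 with normexp fitted on all spots, an alternative added after seeing the data. With scanner as a block there it was 1, an Hbb-bt probe at -3.56 and not Krt7. It was 0 with median centring, the software's log ratio, either of these with scanner as a block, the compared arrays alone, and slide as a random block. Leaving out single arrays gave 0 to 508, with 508 without M002 (then no sham array is left on scanner 2), 4 without M011, 2 without M013 and 0 without any of the other 6. The contrast of d4 and h2 called 0, and 0 with mouse as a replicate block, fixed or random, and leaving out arrays gave 0 to 2, 2 without M013. Between 3 and 6 Gy 0 were called, 45 with the authors' values, and 0 to 1 on leaving out arrays (1 without M016 or M018). Between 3 and 1 Gy 0 were called, 68 with the authors' values, 33 with slide as a random block, and 0 to 14 on leaving out arrays (14 without M008, 4 without M013 and 1 without M014). The causes were not tested. The splits of higher and lower at an unadjusted p under 0.05 and 2-fold were 176 and 129 in the main scaling, 26 and 4407 with median centring, which moved the median of all probes by -0.40, and 640 and 2064 with the software's log ratio, which moved it by -0.14.

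Of 1131 values of 42 genes under other settings, 1002 kept direction and side of the threshold, 55 passed it newly, 16 (Krt7) lost it and 58 changed sign, and of 186 list medians 69 moved. Of the 31 list medians the sign changed for 6 with scanner as a block, 6 within scanner 1, 10 within scanner 2, 9 with the authors' values, 14 with median centring and 7 with the software's log ratio. Sign changes by setting were as follows. With median centring Chac1 was -0.92, Efhd1 -0.16, Bax -0.011, Gdf15 -0.079, Zmat3 -0.62, Polk -0.54, Cdkn1a -0.71, Mdm2 -0.84, Oasl2 -0.057, Cd3g -0.093 and Cd3d -0.086, and with scanner as a block there Chac1 -0.11, Efhd1 -0.35 and Mdm2 -0.025. With the authors' values Chac1 was -1.39, Efhd1 -1.10 and Mdm2 -0.093, and with the block -1.46, -1.20 and -0.078. With the software's log ratio Efhd1 was -0.35, Tek 0.37 and Mdm2 -0.055, and with the block Efhd1 -0.61. Efhd1 was -0.40 with scanner as a block, -0.56 with slide as a random block, where Mdm2 was -0.0015, and -1.15 within scanner 2. With normexp fitted on all spots S100a9 was -0.0046, Rnase2b -0.38, Hrnr -1.27, Cdkn1a -0.16, Lce3c -0.36, Acox2 -0.30, Awat2 -0.63, Il18 -0.60, Cd3d -1.03, Defb1 -0.74 and Efhd1 -1.24, and with scanner as a block there Stfa1 -0.75, S100a9 -0.54, Stfa3 -0.26, Rnase2b -0.77, Hrnr -1.63, Lce3c -0.48, Acox2 -0.30, Awat2 -0.94, Il18 -0.76, Cd3d -1.04, Defb1 -1.0 and Efhd1 -1.55. On leaving out arrays Efhd1 ran from -0.11 to 0.42, Tek from -0.70 to 0.15 and Cdkn1a from -0.028 to 0.36.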
